A study of Homo sapiens with 5 samples.

Results

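The genes described here, 40 genes of DNA replication and cell division, were followed in the human monocytic line MonoMac6 across 5 arrays. They were chosen by name: 23 replication and cyclin E genes and 17 genes of mitotic entry and mitosis, 40 of the 15374 genes measured. Every probe set whose single gene symbol is one of these names was taken (84 probe sets), and the one with the greatest mean signal stood for each gene. One array came from unstimulated cells. For the other 4, cells were kept for 12 h in 100 nM of an eicosanoid dissolved in DMSO: leukotriene B4 (LTB4) or leukotriene C4 (LTC4), lipoxin A4 (LXA4) or its isomer lipoxin B4 (LXB4). The labels do not say whether the unstimulated cells had DMSO. Each condition has 1 array of 1 cell line, so no difference below has a standard error, an interval or a test, and each is a difference between single arrays. Fewer cycling cells and less RNA per cycling cell cannot be told apart in such bulk RNA.

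Cells copy their DNA once per division. In G1, ORC1, CDC6 and CDT1 load the MCM2 to MCM7 helicase on origins; at the start of S phase, cyclin E with its kinase, MCM10, CDC45 and the GINS proteins switch the helicase on, and polymerases with the PCNA clamp then copy the strands. Cyclins A and B with CDK1 drive entry into mitosis, and the Aurora and Polo-like kinases, BUB1, TTK and CDC20 govern chromosome attachment and exit. Transcripts of the first set peak around the G1 to S transition and those of the second in G2 and M, so their levels in a culture follow how many cells are cycling and in which phase.

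Signals were scaled to an equal median over the brighter 50% of probe sets, and values under a floor of 48.7 were set to it. Of the monocytic markers, 8 of 10 with a probe set were over the floor on all 5 arrays. LYZ (36100 to 49100), MNDA (12600 to 15500) and SPI1 (4630 to 7470) were bright, CD14 lay between 188 and 319, and FCGR1A was under the floor on every array. Of the T and NK cell markers 3 of 8 were over it on all arrays (NKG7 at 7120 to 8200, IL7R at 231 to 407, CD8A at 56.3 to 189), while CD3G, CD2 and GNLY were under it on every array. Of the B cell markers 2 of 5 with a probe set were over it (CD79A and CD79B, 85.1 to 168) and 0 were under it on every array. HBB (121 to 142) alone of 5 erythroid and megakaryocyte markers was over it throughout. So were 2 of 7 fibroblast and endothelial markers (PECAM1 at 4650 to 5140, COL1A1 at 177 to 299) and 2 of 7 epithelial ones (KRT18 at 675 to 843, KRT8 at 76.0 to 141). The control probe set for the middle of 18S ribosomal RNA read 186 on the unstimulated array and 913, 3073, 365 and 1056 with LTB4, LTC4, LXA4 and LXB4, at most 16.5 times the unstimulated level. The 3′ control probe sets of GAPDH and ACTB, 2 of the brightest transcripts, were at 0.779 and 0.704 of the unstimulated array with LXB4, and between 0.898 and 1.07 of it on the others. The part of these controls in the results below was not tested.

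All 40 members were over the floor on all 5 arrays, and their lowest signal anywhere was 758 (MCM10, unstimulated). No member was 2-fold apart between any pair of the 5 arrays. Among all measured genes, 2.43%, 2.85%, 2.39% and 2.47% were at least 2-fold from the unstimulated array with LTB4, LTC4, LXA4 and LXB4. Dim genes made up most of these, and the count follows the floor: with LTB4 it was 1764 higher and 2602 lower of 19775 genes with no floor, and 3 and 18 of 9146 with the floor at the 70th percentile. Among the 5680 genes at least as bright as the dimmest member the shares were 0.141%, 0.123%, 0.0352% and 0.158%, so 0 of 40 is near that background. By the brightest probe set of each gene, the widest range of a member over the 5 arrays was 1.48-fold, for CDK1. The narrowest was 1.09-fold, for RRM1, whose second probe set varied more. The median range was 0.24 on the log2 scale, beside 0.28 for the genes of this brightness.

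The median log2 difference of the members from the unstimulated array was 0.09 with LTB4, 0.11 with LTC4, 0.05 with LXA4 and 0.07 with LXB4. Genes of the same brightness had medians of 0.06, 0.12, 0.05 and 0.05 on the same arrays, so bright genes at large had a small upward shift too. After quantile normalization, the members had medians of 0.04, 0.02, -0.00 and 0.05, and the value with LXA4 changed sign. Members above 0 numbered 28, 28, 30 and 27 of 40, against 3524, 4269, 3651 and 3445 of the 5680 bright genes. All 4 comparisons share the 1 unstimulated array.

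**Figure D1:**
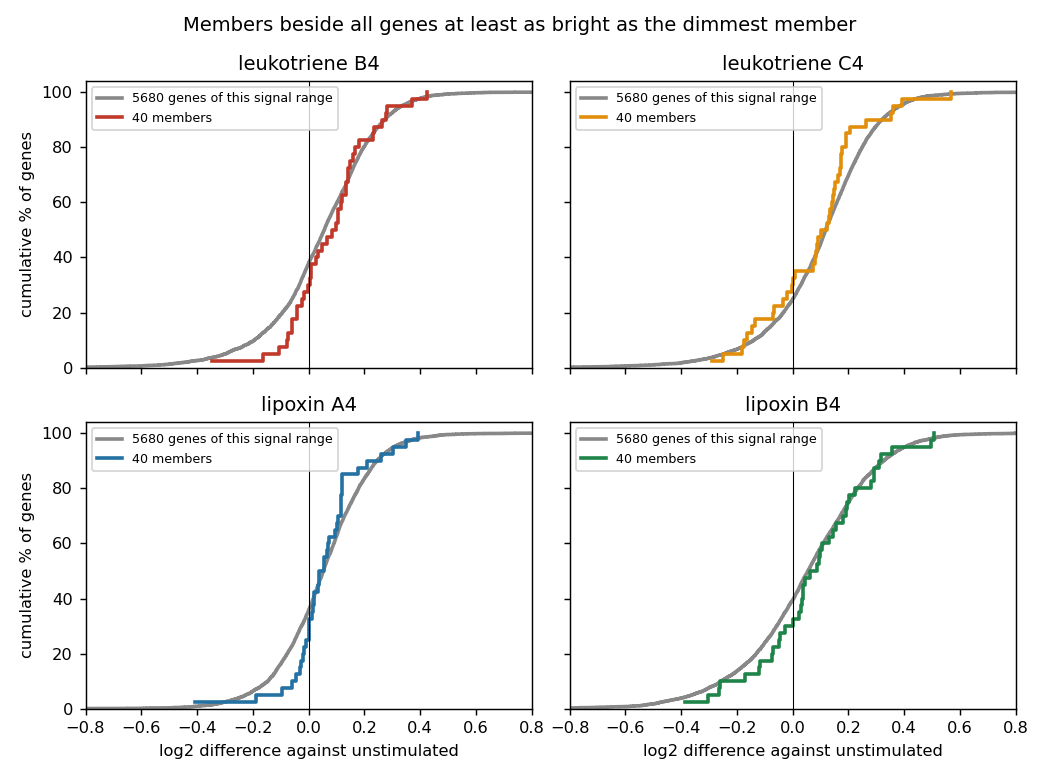
Cumulative percentage of genes (vertical axis) by log2 difference from the unstimulated array (horizontal axis), 1 panel per eicosanoid. Coloured steps are the 40 members and grey lines the 5680 genes at least as bright as the dimmest member; the medians of the 2 lines differ by less than 0.05 in every panel.

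A smaller fold of 1.25, chosen after the values were seen, was used to name the members farthest out. With LTB4, POLA1 and CCNE2 were at least that much higher and CDC45 that much lower, so 2 and 1 of 40, beside 5.79% and 4.21% of the bright genes (11.1% and 15.8% of all genes). With LTC4, 4 were higher (CDK1, AURKA, BUB1 and POLA1) and 0 lower, beside 9.89% and 3.01% (16.5% and 14.3% of all). With LXA4, POLA1 and CCNE2 were higher and MKI67 lower, beside 4.17% and 1.90% (10.3% and 14.4% of all). With LXB4, CDT1, CCNE2 and BUB1 were higher and MKI67 lower, beside 10.5% and 6.50% (12.2% and 17.7% of all). These counts were at or below the share among bright genes, or within 1 gene of it.

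Repeated measurements exist only within an array, where several probe sets read 1 gene. For the 18 members with at least 2 probe sets over a signal of 500 on all arrays, the gap between the highest and lowest difference of a gene's probe sets had a median of 0.14, 0.23, 0.13 and 0.17 on the log2 scale with LTB4, LTC4, LXA4 and LXB4. The size of these genes' differences from the unstimulated array had a median of 0.11, 0.17, 0.07 and 0.15. For these 18 genes, the median difference was thus of the same order as the median gap between probe sets; the other 22 members had no such check. The bright probe sets of a gene all had the same sign for 13, 10, 11 and 10 of these 18 genes.

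Promoter elements, which the choice by name did not use, were partly shared and partly different between replication and mitotic members. Promoter sequences (250 bases before to 50 after an annotated start, RefSeq, GRCh38.p14) matched 33 of the 40 members. Searched on both strands were the CHR element of mitotic genes (TTTGAA or TTCGAA), the CCAAT box bound by NF-Y, and an E2F element in the form TTCCCGC, the form TTGGCGC, the form TTCGCGC or the form TTGCCGC. A gene with several starts counted once if any window held a match. The CHR element was found in 10 of 13 mitotic and 2 of 20 replication members, against 19.5% of 27305 genes. The E2F element was found in 17 of 20 replication members and 2 of 13 mitotic ones (CDK1 and CCNB1), against 15.3% of all genes. The CCAAT box was found in 14 of 20 and 12 of 13, against 39.7%. A match is a description of these letters and shows no binding.

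**Figure D2:**
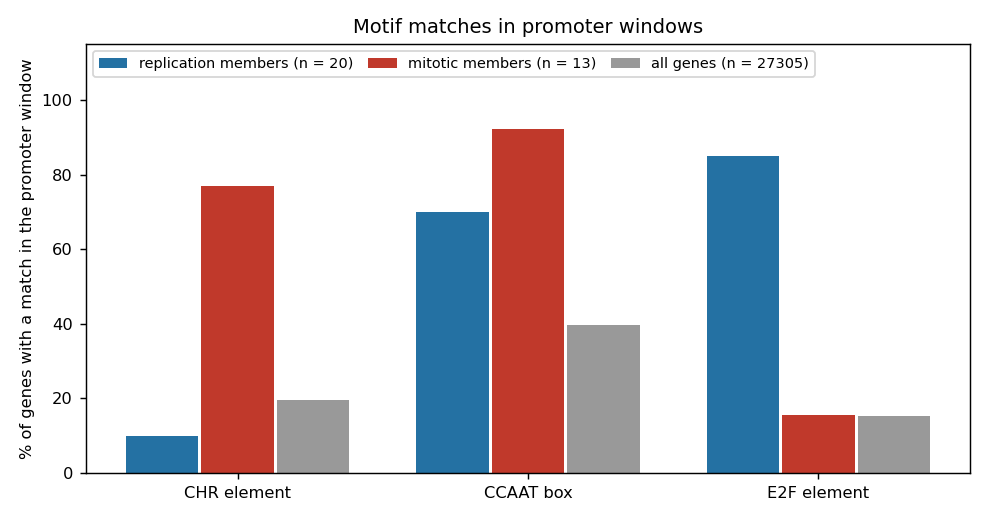
Percentage of genes with at least 1 match in a promoter window (vertical axis, from 0) for each element, with blue bars for the 20 replication members, red for the 13 mitotic members and grey for all 27305 genes with a window. The CHR element reaches 76.9% in mitotic members, and the E2F element 85.0% in replication members and 15.4% in mitotic ones.

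The 150 bases before the start are shown for the mitotic members with the highest and the lowest difference of all, CDK1 and MKI67, and for the replication member POLA1, which was the highest with LTB4. Capitals mark matches to the 3 elements, and sequences read 5′ to 3′ on the gene's strand.
CDK1: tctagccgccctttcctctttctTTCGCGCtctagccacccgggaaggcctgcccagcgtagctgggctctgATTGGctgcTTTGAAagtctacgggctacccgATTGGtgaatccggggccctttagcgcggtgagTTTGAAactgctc
MKI67: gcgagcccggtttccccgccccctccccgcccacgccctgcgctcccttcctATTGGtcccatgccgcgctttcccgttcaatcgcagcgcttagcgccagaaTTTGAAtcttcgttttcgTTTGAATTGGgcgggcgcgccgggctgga
POLA1: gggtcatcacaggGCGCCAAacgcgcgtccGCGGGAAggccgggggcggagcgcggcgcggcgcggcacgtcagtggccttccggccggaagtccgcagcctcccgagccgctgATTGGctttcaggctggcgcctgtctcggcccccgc
The CDK1 stretch lies at chr10:60778328-60778477 on the + strand, and of its 2 annotated starts the one with more matches is shown. Its CHR elements begin 69 and 13 bases before the start, its CCAAT boxes (ATTGG on this strand) 78 and 46, and its E2F element 127. MKI67 lies at chr10:128126424-128126573 on the - strand, with CHR elements beginning 47 and 29 bases and CCAAT boxes 98 and 24 bases before the start; the nearer pair overlaps by 1 base. POLA1 lies at chrX:24693768-24693917 on the + strand, with E2F elements beginning 137 and 120 bases and a CCAAT box 36 bases before the start. CDK1 and MKI67 thus each hold 2 CHR elements and 2 CCAAT boxes here, in a different order and spacing. By their brightest probe sets, their differences were of opposite sign on every stimulated array (0.23 and -0.04 with LTB4). The 2 genes were chosen as the highest and the lowest, so these signs say nothing about the elements.

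Origin licensing and helicase genes lay close to their unstimulated levels. The 13 genes had median log2 differences of 0.00 with LTB4, 0.00 with LTC4, 0.05 with LXA4 and 0.03 with LXB4. Genes of the same brightness had 0.06, 0.12, 0.05 and 0.05, so the group lay farthest below them with LTC4. By their brightest probe sets, the 6 subunits of the MCM2 to MCM7 ring lay between -0.27 and 0.17 in all comparisons. MCM6 had signals of 11775 on the unstimulated array, 12909 and 11794 with LTB4 and LTC4, 12760 with LXA4 and 9795 with LXB4. The LXB4 array was thus the lowest, by -0.27 (-0.23 after quantile normalization), while its dim second probe set gave 0.33. MCM2 ranged from 8308 (LXB4) to 9213 (LTB4), MCM3 from 7046 to 8132, MCM5 from 3140 to 3542 and MCM7 from 6979 to 7870. MCM5 was lowest unstimulated, but its second bright probe set was lower on every stimulated array (-0.27, -0.21, -0.03 and -0.24). MCM7 gave -0.17 with LTC4 and its second bright probe set 0.15.

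MCM4 showed how far probe sets of 1 gene can part. Its brightest gave 6065, 5992, 5410 (lowest, LTC4), 6023 and 6442 in the order unstimulated, LTB4, LTC4, LXA4 and LXB4. A second had its highest value with LTC4, at 5845 against 4497 (0.38), and another had 2532 against 3417 there (-0.43). No single direction can be given for MCM4 with LTC4. MCM10, which helps to start the helicase, had 758 unstimulated and 891, 826, 822 and 830 with LTB4, LTC4, LXA4 and LXB4, so the unstimulated array was the lowest. With LTB4 it parted too, as its 3 probe sets gave 0.23, 0.53 and -0.36, from signals between 355 and 891.

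CDT1, the loading factor that is destroyed once S phase begins, had 1073 on the unstimulated array, 1167 and 1048 with LTB4 and LTC4, 1127 with LXA4 and 1526 with LXB4. The LXB4 value stands above the other 4 (0.51), and 1.78% of the bright genes were at least as far up on that array. Its other probe set had 1054 there against 1291 unstimulated (-0.29), so 1 probe set alone was higher, whose _x_at suffix marks probes that can match other transcripts. CDC45, part of the active helicase, was lower on 1 array alone, with 815 on the LTB4 array against 1035 to 1043 on the other 4 (-0.35). It has 1 probe set.

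The GINS subunits differed from each other. GINS1 had 2286 unstimulated and 2347 with LXA4, but 2775, 2578 and 2846 with LTB4, LTC4 and LXB4 (0.28, 0.17 and 0.32). GINS2 lay between 785 and 817 on 4 arrays and at 993 with LXB4 (0.28), while its 2 dim probe sets, under a signal of 100, were under the floor there. CDC6 (1228 to 1447) and ORC1 (789 to 871), which mark origins for loading, had ranges of 0.24 and 0.14.

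Polymerase and clamp genes had medians of 0.16, 0.20, 0.11 and 0.21 over 4 genes with LTB4, LTC4, LXA4 and LXB4. POLA1, the catalytic subunit that begins new strands with primase, had 1028 on the unstimulated array and 1379, 1311, 1310 and 1199 on the stimulated arrays in that order. All 4 stimulated values lay above the single unstimulated one, by 0.42, 0.35, 0.35 and 0.22. Among bright genes, 1.67%, 7.31%, 3.15% and 21.5% were as far up on these arrays, so the LXB4 value was common among them. POLE2, a subunit of the leading-strand polymerase, ranged from 993 (unstimulated) to 1215 (LXB4), and RFC4, a subunit of the clamp loader, from 4000 (unstimulated) to 4612 (LTC4). PCNA, the sliding clamp, had 14401 unstimulated, 16306 with LTB4 (0.18), 13717 with LTC4, 14406 with LXA4 and 13248 with LXB4 (-0.12), so it was lower on 2 arrays where POLA1 was higher. POLA1, POLE2, RFC4 and PCNA have 1 probe set each.

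Genes of nucleotide supply had medians of 0.04, 0.13, -0.01 and -0.02 over 4 genes in the same order. TYMS, the synthase of thymidylate, had 26004 unstimulated, 24635 and 28449 with LTB4 and LTC4, 25634 with LXA4 and 21706 with LXB4. The LXB4 array was the lowest on both of its bright probe sets (-0.26 and -0.25), but after quantile normalization the value of the first was 0.02, and GAPDH and ACTB were lower on the same array. RRM2, the regulated subunit of ribonucleotide reductase, had 10588 unstimulated and 10944, 11777, 10598 and 10068 in the same order. The LTC4 array was the highest and LXB4 the lowest, whereas its second probe set was lowest unstimulated, at 7797, and highest with LTB4, at 9349. RRM1, the other subunit, stayed between 8536 and 9260, and the thymidine kinase TK1 between 4103 and 4602. A second bright probe set of RRM1 had 2558 with LXB4 against 3413 unstimulated (-0.42), where the first gave 0.10. The second TK1 probe set was lower than unstimulated on each stimulated array, while the first was higher with LTB4, LTC4 and LXB4.

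The cyclin E genes, which activate CDK2 at the G1 to S transition, parted. CCNE2 had 1725 on the unstimulated array and 2232, 1967, 2266 and 2434 with LTB4, LTC4, LXA4 and LXB4. The differences were 0.37, 0.19, 0.39 and 0.50, and its second probe set gave 0.31, 0.05, 0.22 and 0.15. Both probe sets were lowest on the unstimulated array and gave their smallest difference with LTC4, but they disagreed on LXB4 by more than 0.3. CCNE1 had 1014 unstimulated and 965, 1079, 996 and 1082 in the same order on its single measured probe set, so the unstimulated array lay within the range of the others.

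**Figure D3:**
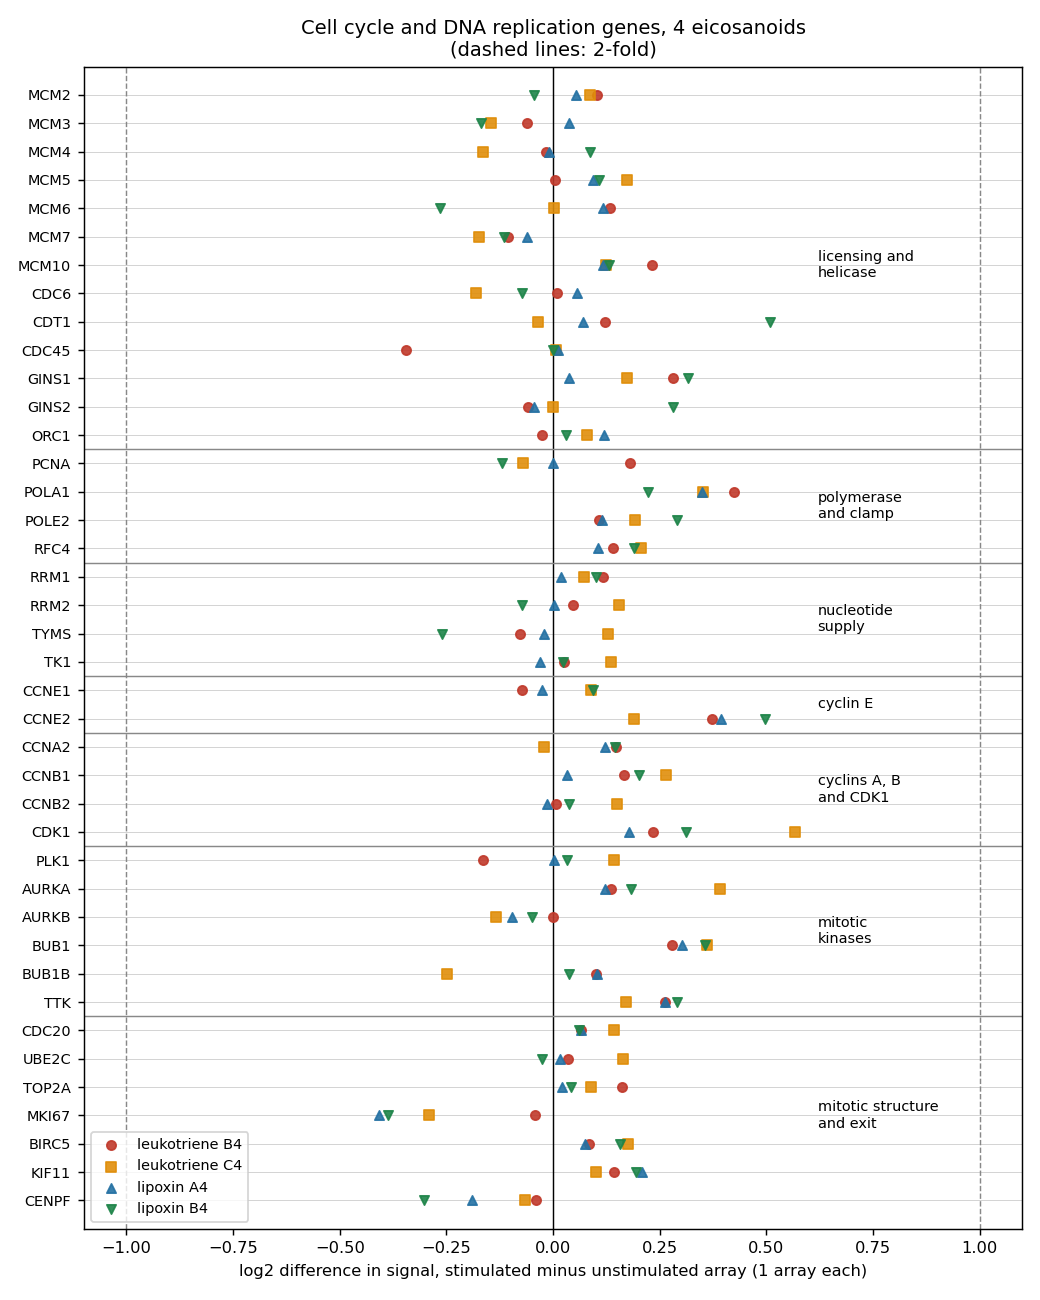
Log2 difference in signal from the unstimulated array (horizontal axis) for each of the 40 members (rows, grouped by role), with 1 symbol per eicosanoid and dashed lines at 2-fold. CDK1 with LTC4 is farthest right (0.57) and MKI67 with LXA4 farthest left (-0.41), and no symbol reaches 2-fold.

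CDK1, the kinase of mitotic entry, had the largest difference of any member by its brightest probe set. Its brightest probe set gave 5283 unstimulated, 6214 with LTB4, 7823 with LTC4, 5975 with LXA4 and 6556 with LXB4. The unstimulated array was the lowest and the LTC4 array the highest, with differences of 0.23, 0.57, 0.18 and 0.31. The second probe set gave 0.41, 0.50, 0.27 and 0.34 and another 0.35, 0.34, 0.31 and 0.35, so the 3 bright probe sets shared a sign on every array, but that last one did not set LTC4 apart. A further, dim probe set, at signals of 70.7 to 161, gave 0.85, 0.23, 0.38 and 1.19. As deposited and after quantile normalization the LTC4 value was 0.49 and 0.44. With the mean of all 4 probe sets the differences were 0.46, 0.41, 0.29 and 0.55, so LXB4 rather than LTC4 was then the highest. On the LTC4 array 0.722% of the bright genes were as far up as the brightest CDK1 probe set. The 18S control was at its highest there, and bright genes had a median of 0.12.

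Its cyclin partners were closer to level. CCNB1 had 5200 unstimulated and 5834, 6243, 5322 and 5976 on the stimulated arrays in the same order, a highest difference of 0.26 with LTC4, where its second probe set gave 0.05. CCNB2 ranged from 5622 to 6299 and CCNA2, the cyclin of S and G2 phase, from 5054 to 5687. CCNA2 was lowest with LTC4 (-0.02), the array on which CDK1 was highest, though its second probe set was highest there.

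Among mitotic kinases, BUB1, which guards chromosome attachment, had 3634 unstimulated and 4409, 4662, 4483 and 4649 on the stimulated arrays (0.28, 0.36, 0.30 and 0.36). The next probe set, also bright, gave 0.17, 0.01, 0.03 and -0.24. Its 2 dim probe sets had opposite signs, at 0.19 to 1.13 and -0.26 to -0.70, so a higher level of BUB1 on all 4 stimulated arrays was read by its brightest and 1 dim probe set only, and the mean of its probe sets gave -0.04 with LXA4. AURKA, the Aurora kinase of the spindle poles, had 4796 unstimulated, 5264 with LTB4, 6290 with LTC4 (0.39), 5217 with LXA4 and 5442 with LXB4. The LTC4 array was the highest, but its second bright probe set gave 0.08 with LTC4. TTK, which acts with BUB1 at the checkpoint, ranged from 2275 (unstimulated) to 2784 (LXB4), with differences of 0.26, 0.17, 0.26 and 0.29 on 1 probe set. BUB1B, another checkpoint kinase-like protein, was lowest with LTC4, at 4620 against 5493 to 5902 on the other 4 arrays (-0.25). PLK1 (2681 to 3320) was lowest with LTB4, and AURKB, the kinase of the chromosomal passenger complex, stayed between 894 and 981.

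MKI67, which encodes the proliferation antigen Ki-67 that coats mitotic chromosomes, was the only member at least 1.25-fold lower with more than 1 eicosanoid on its brightest probe set. Its brightest probe set gave 4610 unstimulated, 4475 with LTB4, 3769 with LTC4, 3472 with LXA4 and 3524 with LXB4. The LTB4 value lay near the unstimulated one (-0.04) and the other 3 below it (-0.29, -0.41 and -0.39). All 4 probe sets were lower with LTC4 (-0.28 to -0.42), LXA4 (-0.24 to -0.63) and LXB4 (-0.17 to -0.83). With LTB4 they ranged from -0.43 to 0.04. Among bright genes, 3.77%, 0.88% and 4.17% were as far down as the brightest probe set with LTC4, LXA4 and LXB4. Its differences kept their sign as deposited and after quantile normalization (-0.39, -0.47 and -0.46).

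Of the other genes of mitotic structure and exit, CENPF came nearest to MKI67. CENPF, an outer kinetochore protein, was read with 3409 unstimulated and 3315, 3257, 2990 and 2764 on the stimulated arrays (-0.04, -0.07, -0.19 and -0.30), but its second probe set, at signals of 333 to 540, gave 0.30, -0.34, 0.17 and 0.36. TOP2A, the topoisomerase that untangles sister chromatids, ranged from 7012 to 7841, BIRC5 (survivin) from 5858 to 6618 and the spindle motor KIF11 from 2379 to 2747. CDC20 (3641 to 4017), which activates the anaphase-promoting complex, and UBE2C (6550 to 7472), the ubiquitin-conjugating enzyme that works with it, had ranges of 0.14 and 0.19.

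**Figure D4:**
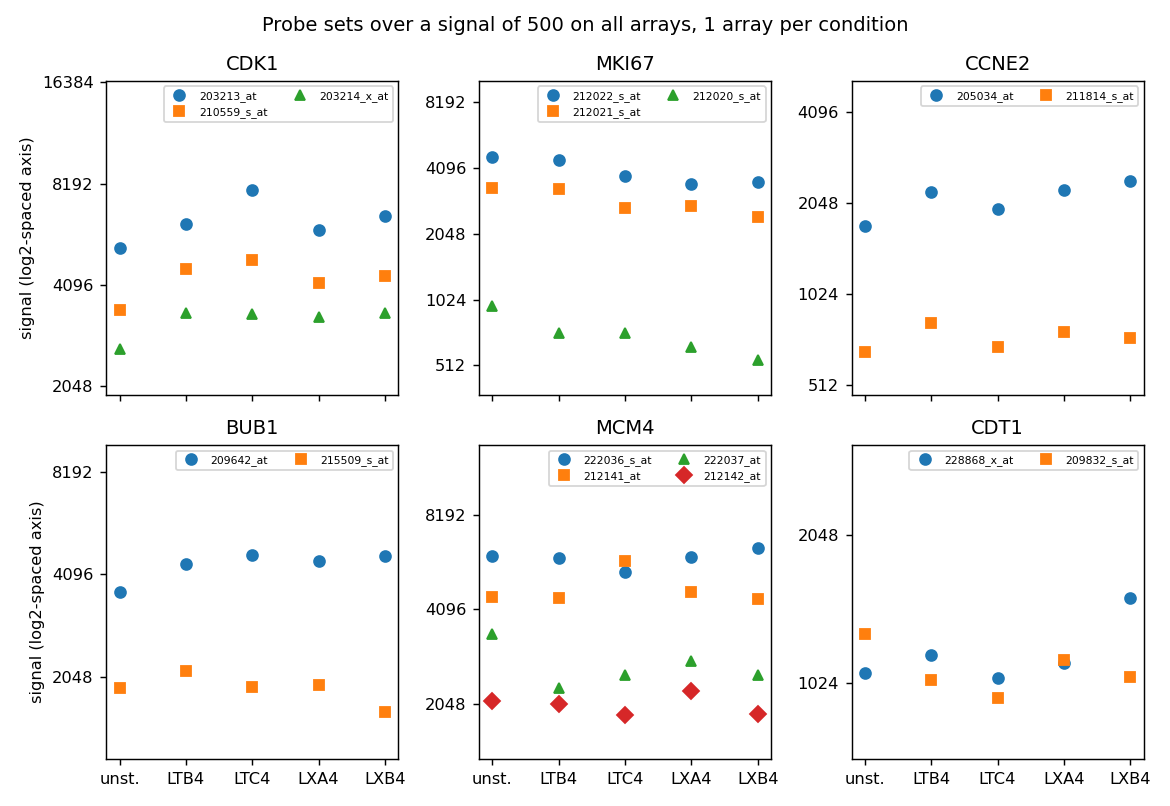
Signal on a log2-spaced axis (vertical) on each of the 5 arrays (horizontal; unst., unstimulated) for every probe set over 500 on all arrays, for CDK1, MKI67, CCNE2, BUB1, MCM4 and CDT1, with 1 symbol per probe set. The 3 CDK1 probe sets are all lowest and the 3 MKI67 probe sets all highest on the unstimulated array, whereas those of MCM4 and CDT1 part.

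Between stimulated arrays, the compounds can be compared at matched dose and time, over 6 pairs, again with 1 array each and no interval. Differences here are those of each gene's brightest probe set. The median difference of the members lay between -0.06 and 0.02 in these pairs and that of the bright genes between -0.07 and 0.07. LTC4 is a conjugate with glutathione, which LTB4 is not. In this pair CDC45 (0.35) and CDK1 (0.33) were at least 1.25-fold higher with LTC4 and BUB1B (-0.35) lower, 3 of 40 beside 6.80% of bright genes and 25.1% of all genes at least that far apart. The other bright CDK1 probe sets had 4858 and 3358 with LTC4 against 4565 and 3373 with LTB4, neither 1.25-fold apart. LXA4 and LXB4 differ in the positions of their hydroxyl groups. CDT1 (0.44) and GINS2 (0.32) were higher and MCM6 (-0.38) lower with LXB4 than with LXA4, 3 of 40 beside 6.30% and 19.9%. The other CDT1 probe set (1054 with LXB4, 1144 with LXA4) and the dim MCM6 one (184 and 169) went the other way. The dim GINS2 probe sets were under the floor with LXB4.

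Across the classes, LXA4 against LTB4 had 2 members this far apart (CDC45 at 0.36 and MKI67 at -0.37), beside 4.93% of bright and 20.8% of all genes. LXB4 against LTB4 had 5 (CDT1, CDC45 and GINS2 higher, MCM6 and MKI67 lower), beside 7.43% and 20.7%. The other CDT1 probe set had 1054 with LXB4 against 1038 with LTB4, and the dim MCM6 one 184 against 160. The dim GINS2 probe sets, at 73.67 and 92.89 with LTB4, were under the floor with LXB4. LXA4 against LTC4 had 2 (BUB1B at 0.35 and CDK1 at -0.39), beside 6.99% and 24.7%. The other bright CDK1 probe sets had 4154.5 and 3292.8 with LXA4 against 4857.9 and 3357.7 with LTC4, neither 1.25-fold apart. LXB4 against LTC4 had 2 (CDT1 at 0.54 and TYMS at -0.39), beside 10.8% and 25.6%. There the other CDT1 probe set had 1054 against 956, and the second bright TYMS probe set 9949 against 11731. No pair had a member 2-fold apart. Over all genes, 2.43% were 2-fold apart for LTC4 against LTB4, 1.44% for LXA4 and 1.28% for LXB4 against LTB4, 2.21% for LXA4 and 2.15% for LXB4 against LTC4, and 1.31% for LXB4 against LXA4. Among bright genes the share was at most 0.0528%.

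Other genes of the same pathways were read from lists of names, and none of them was 2-fold from the unstimulated array either. With LTB4, LTC4, LXA4 and LXB4 in that order, 39 further replication genes had medians of 0.07, 0.13, 0.08 and 0.09, and 38 further mitotic genes 0.12, 0.18, 0.10 and 0.09. In the same order, 24 genes of G1 to S control had 0.16, 0.13, 0.05 and 0.07, and 13 genes of CDK inhibition and arrest -0.01, 0.08, 0.02 and 0.03. Of the further replication genes 0, 1, 1 and 4 were at least 1.25-fold higher and 3, 3, 2 and 2 lower. Of the further mitotic genes 2, 5, 3 and 9 were higher and 2 were lower on each array. Of the G1 to S genes 4, 1, 3 and 3 were higher and 0, 0, 0 and 2 lower, and of the arrest genes 1, 3, 1 and 4 higher and 2, 1, 2 and 1 lower. In the same order, 11.1%, 16.5%, 10.3% and 12.2% of all genes were this much higher and 15.8%, 14.3%, 14.4% and 17.7% lower; of the bright genes, 5.79%, 9.89%, 4.17% and 10.5% were higher and 4.21%, 3.01%, 1.90% and 6.50% lower. The 4 G1 to S genes higher with LTB4 were CCND2, E2F1, E2F7 and RB1, at 48.66, 437.8, 217.9 and 124.4 unstimulated. All of them were dimmer than the bright genes, so the bright share is not a like background for them. CCND2 was at the floor unstimulated. CDKN1C, the 1 arrest gene lower with LXB4, had 63.07 unstimulated and was set to the floor with LTB4, LXA4 and LXB4. Of the listed genes, CCND1 (cyclin D1) was under the floor on all arrays, and CDKN2C and BTG2 had no probe set with a single symbol. The genes at the ends of these lists, named after their values were seen, included INCENP, the scaffold of the chromosomal passenger complex, at 428 unstimulated and 224, 312, 310 and 276 on the stimulated arrays (-0.93 with LTB4). The condensin gene NCAPG had 1895 unstimulated and 2481, 2668, 2232 and 2634. WEE1, the kinase that holds CDK1 inactive, had 1547 unstimulated and 2023, 2192, 2000 and 2014 (0.39, 0.50, 0.37 and 0.38).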

How the data were processed

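RNA of 5 cultures was measured on 5 GeneChip arrays of 54675 probe sets. The authors deposited 1 linear intensity per probe set and array, and the submitters' processing notes name GCOS 1.4 but no signal algorithm. The mean without the outer 2% at each end was 500.1 on every array, a scaling already in the deposited values. The 62 control probe sets were left out, the deposited intensities were put on the log2 scale, and arrays were shifted to an equal median over the upper 50% of probe sets. The floor was the 50th percentile of mean log2 signal (48.7). Genes were named from the platform annotation where a probe set has 1 symbol, updated by gene identifier. Groups come from the sample titles, with 1 array each, so counts at 2-fold and medians stand in place of tests, beside those of all measured genes and of the 5680 genes at least as bright as the dimmest member, a background chosen after the values were seen. The calculation was tested on simulated data. Values on all arrays are given for the 2 members of widest range in each role group and for members whose probe sets had opposite signs of at least 0.3; other members named with values were chosen after their values were seen. The members and lists were chosen with earlier results of these data known. Alternatives were other floors, other scalings and the mean of a gene's probe sets. Python 3.11.15 and pandas 2.3.3 were used.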

Additional observations from a re-analysis of the deposited data

Results flagged for a closer look

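One signal outside the comparisons differed between arrays. The control for the middle of 18S ribosomal RNA was above its unstimulated level with every eicosanoid, at 4.90 times with LTB4, 16.5 times with LTC4, 1.96 times with LXA4 and 5.67 times with LXB4. It is no gene of the list. With 1 array per group, no sample was compared with others of its own group.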

How the results depend on the processing

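No paired analysis was possible because each group has 1 array. The count of members at least 2-fold higher or lower was 0 in all 4 comparisons under every alternative, and the 3 other floors altered no median of the members. The floors could not alter these values, as the lowest member signal (758) lay above the highest floor (243). With no replicates, a log2 difference or its median was taken to have moved when it shifted by at least its SD over the 4 stimulated arrays; for those below, the cause was not tested. As deposited, the medians of all members were 0.0583 (LTB4), 0.0403 (LTC4) and 0.0134 (LXA4), those of replication members 0.014, 0.0134 and 0.0053 on the same arrays, and that of mitotic members 0.0716 with LTC4. After quantile normalization, all members had 0.042 (LTB4), 0.0183 (LTC4), -0.0002 (LXA4) and 0.0453 (LXB4). Replication members then had 0.0122 (LTC4), 0.0057 (LXA4) and 0.0434 (LXB4), and mitotic members 0.054 (LTB4), 0.0376 (LTC4) and -0.0077 (LXA4). With the mean of all probe sets, all members had 0.0822 (LTC4) and 0.0336 (LXB4), replication members 0.0391 and -0.0004 on the same arrays, and mitotic members 0.0222 with LXA4. Of the 160 differences of single members, 28 had another sign under at least 1 of the other scalings; these were at most 0.09 in size, except TYMS with LXB4 (-0.26 to 0.02). The mean of all probe sets altered more: of 64 differences of the 16 members named by rule it moved 22 and turned the sign of 11, against 2 moved as deposited and 8 after quantile normalization. BUB1 with LXA4 went from 0.30 to -0.04, MCM6 with LXB4 from -0.27 to 0.03, CENPF with LXB4 from -0.30 to 0.02 and CDK1 with LXB4 from 0.31 to 0.55. The number of arrays limits the precision.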
